A study of Mus musculus with 6 samples.

Results

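The genes described here are 9 genes of the interferon response, taken from the count table by their symbols: the transcription factors Stat2, Irf9 and Irf7, and the effector genes Isg15, Ifit1, Ifit2, Ifit3, Ifitm3 and Bst2. They are 9 of the 34573 genes in the table, and all 9 passed the filter on low counts. The study compared hematopoietic stem cells (HSCs) of young adult mice with and without the ribosomal protein gene Rpl22, a part of the large ribosomal subunit that cells can grow without, to learn how its loss changes the stem cell and its risk of transformation. Rpl22-/- mice (KO) lacked the gene in the germline and therefore in every cell type, the niche and the immune cells of the marrow included, and Rpl22+/+ mice (WT) carried both copies. Both had been backcrossed to C57BL/6, and the labels name no treatment. Lineage-negative Sca-1+ c-Kit+ CD48- CD150+ cells were sorted from bone marrow and polyA RNA was sequenced in bulk. Each genotype has 3 libraries, KO1 to KO3 and WT1 to WT3. The labels do not say whether the libraries came from separate animals or from pools, so that the p-values measure the spread between these libraries. In bulk RNA, a change in the make-up of the sorted cells and a change in RNA per cell cannot be told apart.

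Type I interferons bind a receptor made of IFNAR1 and IFNAR2, whose kinases JAK1 and TYK2 phosphorylate STAT proteins, STAT2 among them. With IRF9 they form the complex ISGF3, which binds a DNA element called the interferon-stimulated response element (ISRE) in front of its target genes, whereas interferon-gamma works mainly through STAT pairs that bind another element, the gamma-activated site (GAS). IRF7 is itself a target gene and amplifies the production of type I interferon. HSCs keep a basal level of many target genes without infection, and interferon can drive quiescent HSCs into the cell cycle.

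The libraries held 9321123 to 13385850 reads assigned to genes, with WT3 the smallest. Rpl22 fell from between 523.4 and 561.9 CPM (reads scaled to a common library size, with TMM factors) in the WT libraries to between 34.99 and 43.86 CPM in the KO libraries, a log2 fold change of -3.75 ± 0.10 (SE), so that each library matched its labelled genotype. All 12 HSC markers, among them Kit, Procr, Mecom and Slamf1, were detected above the filter, with a summed level of 2509 to 2765 CPM in KO and 2611 to 2726 CPM in WT libraries, and 1 of them, Fgd5, fell (log2 fold change of -0.41). A gene was taken to rise or fall where edgeR's quasi-likelihood test gave a Benjamini-Hochberg adjusted p under 0.05 over the 14004 genes tested, and 3.28% of these genes rose and 2.29% fell in the KO libraries. An unadjusted p under 0.05 was reached by 22.3% of them in either direction, and 48.7% had a log2 fold change above 0. Of the 12 HSC markers, 5 reached an unadjusted p under 0.05 in that test, and 5 had a value above 0 and 7 below. Their median log2 fold change was -0.07. The KO libraries lay wholly below the WT libraries for 3 of the 12, where 13.6% of all genes tested did so.

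Bst2 and Irf7 were the 2 of the 9 genes that rose in Rpl22-/- HSCs, and none fell, where 3.28% of all genes tested rose and 2.29% fell. Their shares of increase were 37.5% for Bst2 and 48.3% for Irf7. The number of the 9 genes past the test was 0 without KO3 and 0 without WT1. The KO libraries lay wholly above the WT libraries for 4 of the 9 genes, Bst2, Irf7, Ifit3 and Isg15, where 13.3% of all genes tested did so. The other 5 genes, Stat2, Irf9, Ifit1, Ifit2 and Ifitm3, overlapped between the genotypes. Over the 9 genes the median log2 fold change was 0.10, against -0.01 over all genes tested. All 9 fitted values were above 0, but those of Stat2 and Ifit2 turned to -0.03 and -0.0061 when libraries were scaled by their size alone, and that of Stat2 to -0.0011 in limma-voom.

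**Figure D1:**
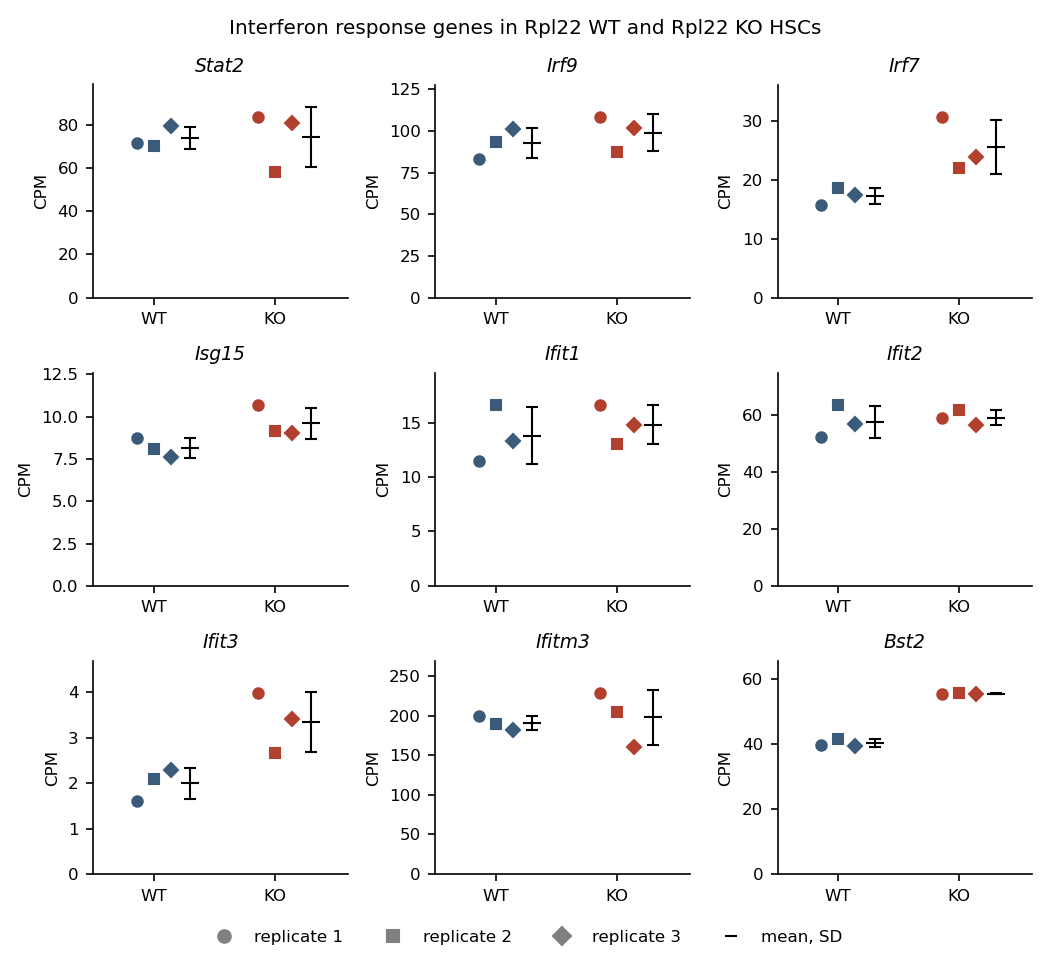
Level of each of the 9 genes in CPM (vertical axes from 0) in the 3 WT (blue) and 3 KO (red) libraries, with the mean and SD beside each group and the marker shape giving the replicate number. The 3 KO points stand above the 3 WT points for Irf7, Isg15, Ifit3 and Bst2, and the groups overlap in the other panels.

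Stat2 and Irf9 encode parts of ISGF3. Stat2, on chromosome 10 (GRCm38, 128270559 to 128292849, plus strand), stood at 83.47, 58.1 and 80.75 CPM in KO1, KO2 and KO3 and at 71.52, 69.99 and 79.49 CPM in WT1, WT2 and WT3. KO2 was the lowest of all 6 libraries and the other KO libraries the highest, so that the KO group spread widely around the same mean. The group means were 74.1 ± 13.9 (SD, n = 3) and 73.7 ± 5.10 CPM (SD, n = 3), with a log2 fold change of 0.01 (95% confidence interval -0.24 to 0.26). The fitted value turned negative without KO1, KO3, WT1 or WT2, at -0.08, -0.05, -0.01 and -0.02.

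Irf9, the DNA-binding subunit of ISGF3, lies on chromosome 14 (55603571 to 55610030, plus strand). It was at 108.3, 87.06 and 101.6 CPM in the KO libraries and at 83.19, 93.1 and 101.2 CPM in the WT libraries. The ranges overlapped, with KO1 highest and WT1 lowest. The log2 fold change was 0.10 ± 0.10 (SE), with an adjusted p of 0.607 in edgeR's quasi-likelihood test. Its gene interval shares 123 bases with that of Rnf31 on the same strand, where reads may not be divisible between the genes.

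Irf7 lies on chromosome 7 (141262706 to 141266481, minus strand). It had 393, 264 and 315 reads in KO1, KO2 and KO3 and 205, 231 and 167 in WT1, WT2 and WT3, or 30.63, 21.97 and 23.93 CPM against 15.75, 18.54 and 17.38 CPM. Every KO library was above every WT library, and KO1 stood highest. The log2 fold change was 0.57 ± 0.15 (SE), with an adjusted p of 0.0341 in edgeR's quasi-likelihood test and an interval of 0.26 to 0.88. The exact two-sided permutation test over the 6 libraries gave p = 0.1, the smallest that 3 against 3 libraries allow. The call rested on nearly all libraries: without KO1, KO3, WT1, WT2 or WT3 the adjusted p rose to between 0.0628 and 0.147, while without KO2 Irf7 stayed past the threshold. The log2 fold change was between 0.42 and 0.66 in these fits. The call was also lost with library size alone, with the GC trend removed, and with a replicate block and both trends removed (adjusted p of 0.0552, 0.0728 and 0.0827), at log2 fold changes of 0.53, 0.50 and 0.50. Its gene interval shares 45 bases with that of Phrf1 on the opposite strand, and the strand setting of the counting is not given in the sources used here.

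Among the effectors, Bst2 had the smallest spread. It encodes tetherin, a membrane protein that holds budding enveloped viruses at the cell surface, and lies on chromosome 8 (71534255 to 71537456, minus strand). The KO libraries held 55.34, 55.51 and 55.3 CPM and the WT libraries 39.79, 41.58 and 39.43 CPM. Within each genotype the libraries nearly coincided and the groups stood clearly apart. The means were 55.4 ± 0.114 and 40.3 ± 1.15 CPM (SD, n = 3 each), with a log2 fold change of 0.46 ± 0.09 (SE), an interval of 0.27 to 0.65 and an adjusted p of 0.0115 in edgeR's quasi-likelihood test. The size was kept when any 1 library was left out, at 0.44 to 0.48, but the adjusted p was 0.0561 without KO3 and 0.0606 without WT1. The log2 fold change was 0.35 with the length trend removed, which is the trend over the joined length of all annotated exons of a gene. It was 0.30 with a replicate block and the length and GC trends removed together, where the call was lost (adjusted p = 0.102).

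Isg15 encodes a ubiquitin-like protein that is attached to other proteins after interferon. It lies on chromosome 4 (156199424 to 156200818, minus strand) and was at 10.68, 9.155 and 9.04 CPM in the KO libraries and at 8.757, 8.106 and 7.595 CPM in the WT libraries. The groups did not overlap, though KO3 and WT1 were close to each other. Its log2 fold change of 0.24 (interval -0.13 to 0.60) did not pass the test, with an adjusted p of 0.457. It was 0.13 with the length trend removed and 0.09 with the replicate block and both trends removed. An annotated copy, AC151275.1, is 95.2% identical over 63.8% of the transcript, so that reads may have been shared with it.

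The Ifit genes encode proteins with tetratricopeptide repeats that bind viral RNA or block its translation. Ifit2, Ifit3 and Ifit1 lie in this order on the plus strand of chromosome 19, from 34550694 to 34576419, 34583531 to 34588731 and 34640871 to 34650009.  Ifit3 was at 3.975, 2.663 and 3.418 CPM in the KO libraries and at 1.613, 2.087 and 2.289 CPM in the WT libraries, which rested on 21 to 51 reads per library. The groups did not overlap, and Ifit3 had the highest fitted value of the 9 genes and the widest interval, 0.76 on the log2 scale (0.10 to 1.42). It did not pass the test, with an adjusted p of 0.161, or an unadjusted p of 0.0266. It is 97.8% identical to its neighbour Ifit3b over 97.4% of the transcript, so that its reads are not certain to be its own. Ifit3b, in the table under the older symbol I830012O16Rik, had 19, 6 and 20 reads in the KO and 4, 10 and 8 in the WT libraries, a log2 fold change of 0.88 with an adjusted p of 0.362.

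Ifit1 stood at 16.6, 13.07 and 14.81 CPM in the KO libraries and at 11.45, 16.61 and 13.32 CPM in the WT libraries. KO1 and WT2 shared the highest level and WT1 was lowest, and the log2 fold change was 0.10 (interval -0.25 to 0.46). Without WT1 it was -0.02. Ifit2, the best counted of these genes with 546 to 792 reads per library, was at 59.08, 62.01 and 56.52 CPM in the KO and at 52.54, 63.57 and 56.81 CPM in the WT libraries. The WT libraries held both the highest and the lowest value, and the log2 fold change was 0.04 (interval -0.17 to 0.24), or -0.03 without WT1.

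Ifitm3 encodes a membrane protein that stops viruses from fusing with endosomes, and lies on chromosome 7 (141009586 to 141010770, minus strand). Its level was 228.0, 204.5 and 160.6 CPM in the KO libraries and 200.1, 189.0 and 182.0 CPM in the WT libraries. KO1 was the highest and KO3 the lowest of all 6 libraries, and the log2 fold change was 0.05 (interval -0.18 to 0.29). It was -0.06 without KO1 and also with the length trend removed. Gm6885 is 91.6% identical to it over 52.5% of the transcript.

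**Figure D2:**
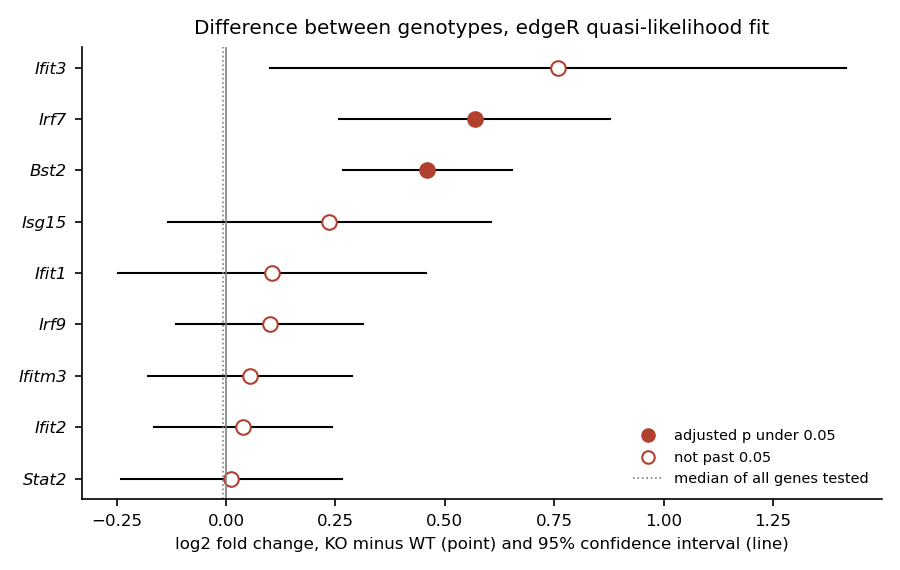
Log2 fold change (KO minus WT, horizontal axis) of each of the 9 genes with its 95% confidence interval from edgeR's quasi-likelihood fit; filled points have an adjusted p under 0.05 and the dotted line is the median of all 14004 genes tested. The intervals of Bst2, Irf7 and Ifit3 lie above 0, and only Bst2 and Irf7 pass after adjustment over all genes.

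Levels of different genes were compared as CPM per kb of the longest protein-coding transcript. Over all 6 libraries Ifitm3 was highest at 286 ± 33.6 (SD, n = 6), followed by Bst2 at 60.4 ± 10.5 and Irf9 at 32.4 ± 3.25 CPM per kb, and the libraries of these 3 genes did not overlap. Stat2 at 16.8 ± 2.13 and Ifit2 at 15.3 ± 1.05 CPM per kb overlapped, as did Ifit2 with Isg15 at 11.8 ± 1.40 and Isg15 with Irf7 at 9.55 ± 2.43 CPM per kb. Ifit1 was below these at 5.39 ± 0.780 and Ifit3 lowest at 1.53 ± 0.504 CPM per kb. The order of neighbours Isg15 and Irf7 was clear in the WT libraries, where Isg15 had at least 10.05 and Irf7 at most 8.288 CPM per kb, and was not in the KO libraries, where their ranges overlapped. Ifit2 and Isg15 overlapped only across genotypes. In KO libraries Ifit2 had at least 14.8 and Isg15 at most 14.13 CPM per kb, and in WT libraries 13.76 and 11.58.

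Within a genotype the libraries also differed. Averaged over the 9 genes, the deviation from each gene's mean on the log2 CPM scale was 0.28 in KO1, 0.00 in KO2 and 0.09 in KO3, and -0.21 in WT1, -0.06 in WT2 and -0.10 in WT3. KO1 was the highest library for 6 of the 9 genes and WT1 the lowest for 5. The KO2 library was thus level with the mean of all libraries, and it stood below the WT libraries WT2 and WT3 for Stat2, Irf9 and Ifit1. Of the 36 pairs of the 9 genes, 32 had a positive Pearson correlation over the 6 libraries, with a median r of 0.34 and a range of -0.41 to 0.96. Irf7 with Ifit3 was the closest pair at 0.96, followed by Irf7 with Bst2 at 0.88, whereas Stat2 and Ifit2 were the farthest apart. These points share their library, its depth and the genotype, so that the correlations are a description.

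**Figure D3:**
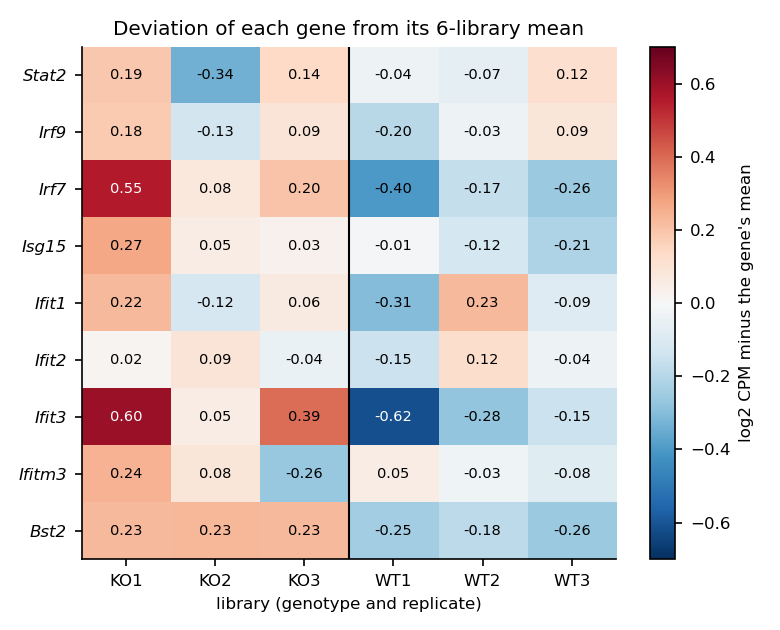
Log2 CPM of each gene minus its mean over the 6 libraries (colour and printed value), with the KO libraries left and the WT libraries right of the line. KO1 is high in most rows, the row of Bst2 is uniform within each genotype, and Irf7 and Ifit3 share a pattern.

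Among the other genes whose levels ran closest to the average of the 9, each scaled to equal variance, were Oas1a (r = 0.997, rho = 0.943), Atp5sl (0.976, 1.0), Mfsd2b (0.975, 0.943) and Cmtm8 (0.975, 1.0), over 6 libraries. Of 13995 genes compared, 80 reached an r of 0.9. Oas1a, which encodes an enzyme that makes oligoadenylate on sensing double-stranded RNA, is itself an interferon-stimulated gene. It was at 44.97, 33.63 and 35.63 CPM in the KO and at 26.73, 33.71 and 30.69 CPM in the WT libraries. KO2 and WT2 were level for it, and its log2 fold change of 0.33 did not pass the test, with an adjusted p of 0.154.

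The sequence in front of the 9 genes was read for the letters of the ISRE core, GAAANNGAAA, on both strands, in RefSeq windows (GRCm38.p6) from 250 bases before to 50 bases after each annotated start. The windows of all 9 genes were found. The ISRE letters were present for 6 of the 9 genes, Isg15, Bst2, Stat2, Ifit3, Ifit1 and Ifitm3, or 66.7% of them, beside 3.99% of all 27025 genes with a window. Counted by windows, 6 of 11 held them, beside 3.44% of all 32851. For 43 other type I interferon-stimulated genes with a window, 17 held them. They were not in these windows of Irf7, Irf9 or Ifit2. Both windows of Irf9 lie inside the gene interval given above, so that the sequence ahead of that interval was not read. The matches upstream of the start are shown for 5 genes, first for Bst2, Isg15 and Ifit3, whose genotypes did not overlap, and then for Ifit1 and Stat2, whose genotypes did, with the matched letters in capitals. On the plus strand genes the match is on the opposite strand and reads TTTCNNTTTC.
Bst2, chr8:71537567-71537622, minus strand: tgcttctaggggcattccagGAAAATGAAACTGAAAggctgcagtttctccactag
Isg15, chr4:156200855-156200916, minus strand: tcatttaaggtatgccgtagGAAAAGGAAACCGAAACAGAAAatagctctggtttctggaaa
Ifit3, chr19:34583353-34583436, plus strand: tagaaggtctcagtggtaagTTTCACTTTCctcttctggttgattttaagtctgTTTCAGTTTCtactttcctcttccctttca
Ifit1, chr19:34640765-34640833, plus strand: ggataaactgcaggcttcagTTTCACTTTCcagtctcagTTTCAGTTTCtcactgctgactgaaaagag
Stat2, chr10:128270256-128270305, plus strand: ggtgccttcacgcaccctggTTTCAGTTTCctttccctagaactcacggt

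The capitals of Isg15 are 3 overlapping matches, which begin 78 to 66 bases before the start, and those of Bst2 are 2 overlapping matches 130 and 124 bases before it. Ifit3 and Ifit1 have 2 separate matches each, at 156 and 122 and at 104 and 85 bases, and Stat2 has 1 at 222 bases. Ifitm3 has 2 matches that begin just after its start, which are not printed. The GAS letters, TTCNNNGAA, occurred in the windows of Ifitm3, Bst2 and Ifit2 and in 8.3% of all windows, and in Bst2 and Ifitm3 they overlap the ISRE letters. Of the genes that rose, Bst2 holds the ISRE letters in its window and Irf7 does not, and Stat2 and Ifit1 hold them with intervals of the fold change that include 0. A match of letters is a description of the sequence and not evidence of binding.

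The other genes of the pathway were grouped by role, and 123 of the 157 in the table were tested. Of these, 9 rose and 2 fell in Rpl22-/- HSCs, which is 7.32% risen beside 3.28% of all genes, and 84 had a fitted value above 0 and 39 below. An unadjusted p under 0.05 was reached by 24 of the 123, where 22.3% of all genes did so. Their median log2 fold change was 0.09. Among the genes that rose were Phf11d, Lgals3bp, Oasl1, Zbp1, Ube2l6, Ifitm2, Iigp1 and Gbp3, and Tlr4 was among those that fell. The total of 11 genes past the test in either direction depended on single libraries: it was 3 without KO3, 3 without WT1, 4 without WT2 and 6 without WT3, and 14 and 10 without KO1 and KO2.

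**Figure D4:**
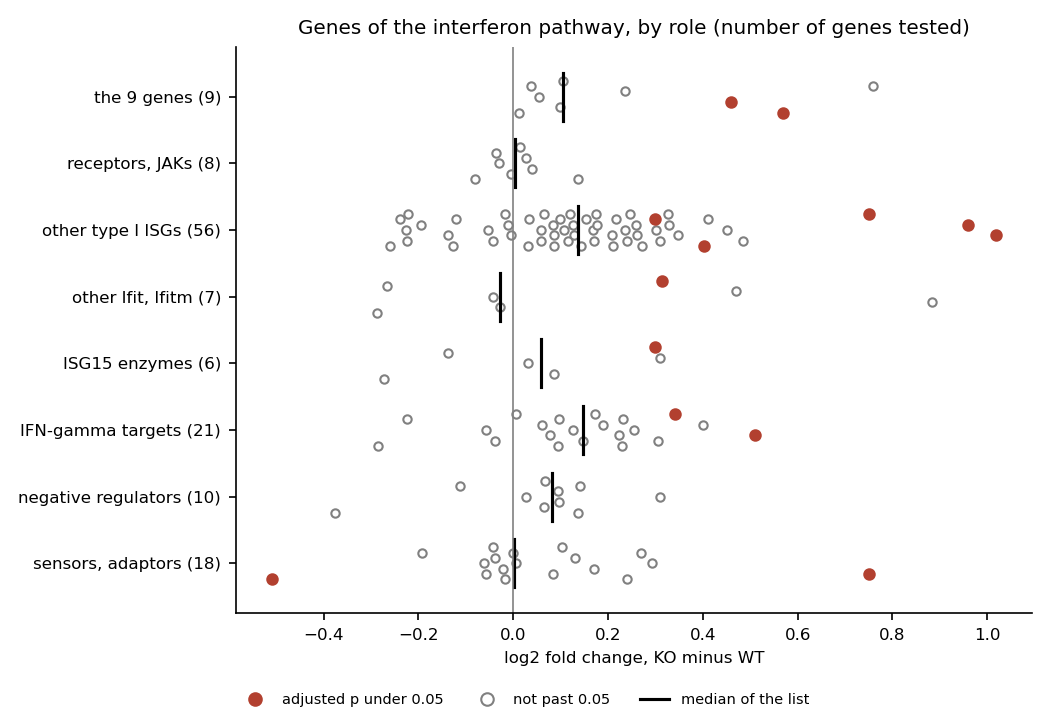
Log2 fold change (KO minus WT, horizontal axis) of the 9 genes and of 7 lists of other pathway genes by role, with the number of genes tested in brackets; red points have an adjusted p under 0.05 in edgeR's quasi-likelihood test and black bars mark the median of each list. A few genes may stand in more than 1 list. The receptors lie near 0, and the red points other than Tlr4 lie to the right of 0.

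The interferons themselves were hardly seen. Of 20 ligand genes, among them Ifnb1, the Ifna genes and Ifng, 18 had no read in any library, and the others, Ifnab and Ifnk, had at most 2 reads in a library, so that none was tested. A polyA library of HSCs does not show interferon made by other cells of the marrow. The receptors and Janus kinases were well counted, and 0 of 8 tested passed edgeR's quasi-likelihood test (0 also at an unadjusted p under 0.05), with a median log2 fold change of 0.00. Ifnar1, a subunit of the type I receptor, had 80.4 CPM in KO and 85.1 CPM in WT libraries, and Jak1 368 and 377 CPM. Ifngr1, the ligand-binding subunit of the interferon-gamma receptor, had the smallest p of this list, at 78.56, 77.65 and 79.76 CPM in the KO and at 64.6, 73.44 and 76.99 CPM in the WT libraries, with a log2 fold change of 0.14 (interval -0.05 to 0.33) and an adjusted p of 0.396.

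Stat3, which mediates signals of the interleukin-6 family, and Irf1, a factor induced by interferon-gamma, did not pass the test, with log2 fold changes of 0.06 and 0.13 and adjusted p of 0.752 and 0.465 in edgeR's quasi-likelihood test. Irf3, which sets off the first wave of type I interferon, was level at 80.4 and 80.0 CPM.

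Of 56 other type I interferon-stimulated genes, 5 rose and 0 fell, beside 3.28% and 2.29% of all genes. An unadjusted p under 0.05 was reached by 13 of them, a share close to the 22.3% of all genes. The median log2 fold change was 0.14, with 42 values above 0, beside 48.7% of all genes. Phf11d, listed under its older symbol D14Ertd668e, is an interferon-induced gene with a PHD finger and had the largest change among those that rose. Its level was 19.64, 15.06 and 13.29 CPM in the KO libraries and 8.757, 8.508 and 6.243 CPM in the WT libraries, a log2 fold change of 1.02 ± 0.19 (SE) with an adjusted p of 0.0083 that held under all 17 alternatives. It is 92.9% identical to Phf11b over 26.0% of its transcript.

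Oasl1, a relative of the oligoadenylate synthetases that lacks the enzyme activity and limits translation of Irf7 mRNA, rose from 3.226, 5.297 and 4.474 CPM in the WT libraries to 8.807, 8.157 and 8.28 CPM in the KO libraries. The groups did not overlap, with a log2 fold change of 0.96 ± 0.22 (SE) and an adjusted p of 0.0213 in edgeR's quasi-likelihood test. Zbp1, a sensor of Z-form nucleic acids that can start necroptosis, was at 24.16, 16.31 and 17.7 CPM in the KO and at 10.45, 10.51 and 13.84 CPM in the WT libraries, with a log2 fold change of 0.75 ± 0.18 (SE) and an adjusted p of 0.0234. Lgals3bp, a secreted glycoprotein, stood at 247.0, 240.9 and 250.8 CPM against 172.6, 187.9 and 199.0 CPM, with a log2 fold change of 0.40 ± 0.08 (SE) and an adjusted p of 0.0149. All KO libraries of these genes were above the WT libraries. Without KO3 or WT1 none of the 3 passed (adjusted p of 0.0667 to 0.107), nor did Zbp1 and Lgals3bp without WT2 (0.0954 and 0.0657) or Oasl1 without WT3 (0.0693). Ube2l6, the E2 enzyme that hands ISG15 to its targets, is also counted among the type I genes that rose. Of 6 ISG15 conjugation enzymes, most of them in that list too, it was the 1 that rose, beside 3.28% of all genes. In edgeR's test 2 of the 6 had an unadjusted p under 0.05, and 4 values were above 0 and 2 below. Ube2l6 had 87.59 to 94.38 CPM in KO and 68.95 to 75.43 CPM in WT libraries, with a log2 fold change of 0.30. Its adjusted p of 0.0496 passed under 5 of 17 alternatives and in no fit that left out 1 library. Its transcript also has 4 annotated partial copies of over 90% identity.

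Of the 7 tested relatives of the Ifit and Ifitm genes, 1 rose, and the median was -0.03. Ifitm2, a close relative of Ifitm3, was at 226.6, 264.2 and 252.8 CPM in the KO and at 206.7, 196.3 and 195.4 CPM in the WT libraries, a log2 fold change of 0.31 with an adjusted p of 0.0452 that passed under 7 of 17 alternatives and was 0.115 to 0.158 without KO2, KO3 or any WT library. It has 6 annotated copies of at least 90% identity over 44.6% to 66.0% of its transcript. Ifitm1 was at 214.5 CPM in KO and 221 CPM in WT libraries, with a log2 fold change of -0.04.

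Among 21 genes induced mainly by interferon-gamma, most of them GTPases that attack the vacuoles of intracellular parasites, 2 rose and 0 fell. This was 9.52% risen, where 3.28% of all genes rose and 2.29% fell. An unadjusted p under 0.05 in edgeR's test was reached by 4 of them, where 22.3% of all genes did so. Their median log2 fold change was 0.15, with 17 values above 0, beside 48.7% of all genes. Iigp1 was at 92.51, 65.5 and 96.78 CPM in the KO and at 53.0, 57.15 and 69.4 CPM in the WT libraries. KO2 lay below WT3, so the groups overlapped, and the log2 fold change was 0.51 ± 0.13 (SE) with an adjusted p of 0.0371, which was 0.179 without KO3, 0.169 without WT1 and 0.126 without WT2. Gbp3 was at 53.27 to 59.63 CPM in KO and 42.56 to 45.16 CPM in WT libraries, with a log2 fold change of 0.34 and an adjusted p of 0.0445, which passed under 8 of 17 alternatives and was 0.0629 to 0.176 without KO2, KO3 or any WT library.

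None of 10 negative regulators passed edgeR's quasi-likelihood test (0 also at an unadjusted p under 0.05). Usp18, which removes ISG15 and blocks the type I receptor, had the smallest p, at 17.61, 14.98 and 14.74 CPM in the KO and at 10.45, 14.77 and 13.01 CPM in the WT libraries. The groups overlapped narrowly, and the log2 fold change was 0.31 (interval -0.03 to 0.65). A list of 18 sensors, most of them for nucleic acids, and adaptors lies upstream of interferon production. Zbp1, already counted among the type I genes, rose and Tlr4 fell, beside 3.28% and 2.29% of all genes, and the median was 0.00. Tlr4, the receptor for bacterial lipopolysaccharide, was at 17.15, 15.23 and 18.38 CPM in the KO libraries and at 24.66, 24.0 and 23.62 CPM in the WT libraries, with a log2 fold change of -0.51 ± 0.13 (SE) and an adjusted p of 0.0315 in edgeR's quasi-likelihood test, or 0.0685 to 0.123 without KO2, KO3 or any WT library. Mavs, Tmem173 (STING) and Tbk1 had log2 fold changes of 0.10, -0.0014 and -0.04.

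Markers of other cells that the sort could hold were set beside these values. Of 9 plasmacytoid dendritic cell markers, Tcf4 and Runx2, which HSCs also express, were the 2 above the filter, the others had at most 9 reads in a library, and Siglech had none. The summed level of this list was 245.9 to 266.5 CPM in KO and 249.1 to 264.6 CPM in WT libraries. Monocyte and macrophage markers summed to 20.51 to 49.86 and 20.59 to 29.86 CPM, with 0 of 6 tested genes changed in edgeR's quasi-likelihood test and 1 at an unadjusted p under 0.05. All 6 had a value above 0, and their median log2 fold change was 0.58. Neutrophil markers summed to 96.63 to 211.2 CPM in KO and 66.14 to 103.9 CPM in WT libraries, with the highest sum in KO2. Of 8 tested, 1 rose, the granule gene Camp, with a log2 fold change of 2.43. Camp had only 11, 31 and 47 reads in the KO and 10, 2 and 3 in the WT libraries. Of the 8 neutrophil markers, 5 had an unadjusted p under 0.05, 7 had a value above 0 and the median log2 fold change was 1.53. The part of the monocyte and neutrophil markers in the interferon genes was not tested. B cell markers summed to 27.13 to 29.62 and 23.2 to 25.2 CPM, T and NK cell markers to 41.0 to 49.45 and 35.11 to 41.1 CPM, and erythroid markers to 27.22 to 31.49 and 26.73 to 28.5 CPM, with none changed by edgeR's test, 1 gene each for the B cell and the T and NK cell lists at an unadjusted p under 0.05, and Cd3e, Ms4a1 and Igll1 without a read. Megakaryocyte markers moved with the genotype: 5 of 6 rose, and their sum was 817.0 to 978.4 CPM in KO and 537.9 to 710.4 CPM in WT libraries, highest in KO1. Their part in the higher Irf7 and Bst2 was not tested.

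**Figure D5:**
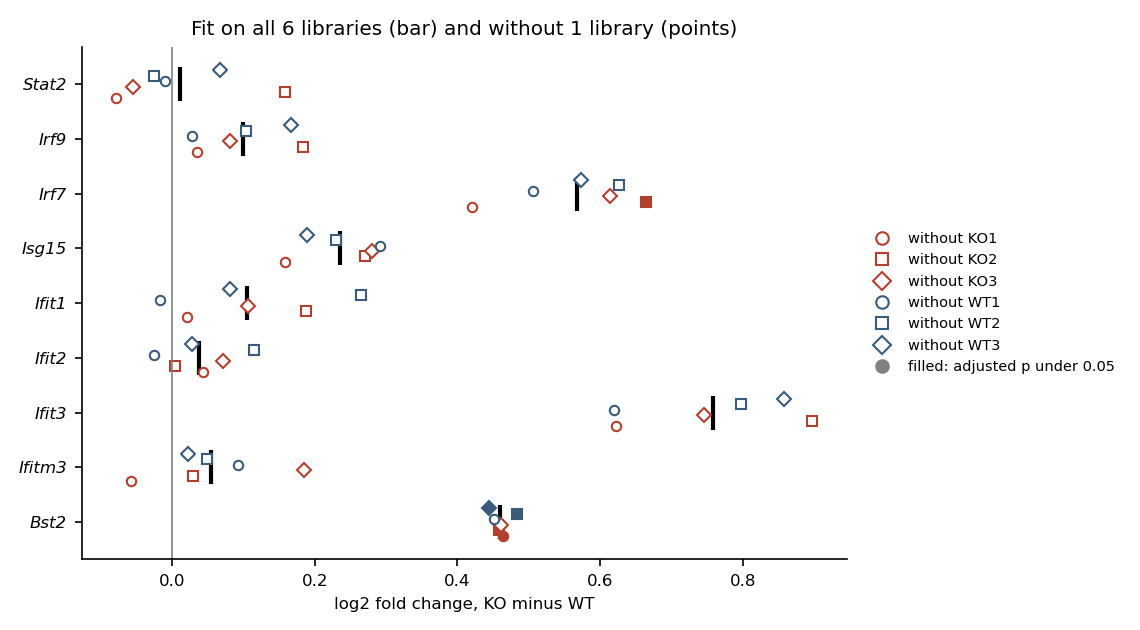
Log2 fold change (KO minus WT, horizontal axis) of each of the 9 genes in the fit on all 6 libraries (black bar) and in the 6 fits that each leave out 1 library (points, red for a KO and blue for a WT library left out, filled where the adjusted p is under 0.05). The points of Bst2 lie together at 0.44 to 0.48, those of Irf7 run from 0.42 to 0.66, and those of Stat2, Ifit1, Ifit2 and Ifitm3 fall on both sides of 0.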

How the data were processed

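The authors checked reads with FastQC, aligned them to mm10 with TopHat2 2.1.1 and counted them per gene with HTSeq, and deposited a table of raw counts for 3 KO and 3 WT libraries of a TruSeq RNA (polyA+) kit. The gene annotation and the strand setting of the counting are not given in the sources used here. HTSeq's rows without a gene held 58.6% to 60.9% of each library's entries and were left out. All 6 count columns were used, and 0 were set aside.

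From these deposited counts, genes were filtered with filterByExpr (minimum count of 10), scaled by TMM and fitted with edgeR 4.0.16 (R 4.3.3) by the quasi-likelihood test, KO against WT, with Benjamini-Hochberg adjustment over 14004 genes. Log2 fold changes carry standard errors and 95% intervals from that fit. The study's own test, DESeq2 (here 1.42.0), limma-voom (limma 3.58.1), other scalings and filters, a replicate block, length and GC trends, and each left-out library were alternatives. Of these steps the main edgeR fit alone was tested on simulated counts, with known changes larger than those of the genes described here. The depth of 9321123 to 13385850 reads gave the least precision to Ifit3.

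Genes were matched to GENCODE M21 and RefSeq by symbol (29042) or older symbol (1849), and copies were found with BLAST 2.17.0. The 9 genes and the lists were chosen with earlier results of these data known. Named beside them were Rpl22, the genes of each list past an adjusted p of 0.05 (at most the 5 with the smallest p) or else the one with the smallest p, and, of the 5 genes closest in pattern, those reported. A few other genes (Ifit3b, Ifnar1, Jak1, Stat3, Irf1, Irf3, Ifitm1, Mavs, Tmem173, Tbk1, Fgd5 and Camp) were named after their values were seen. The results of a few genes are not reported here.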

Additional observations from a re-analysis of the deposited data

How the results depend on the processing

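Of the 9 genes, 2 passed in the fit reported and also with RLE or upper-quartile factors, DESeq2, limma-voom, no filter, at least 10 counts in every library, the length trend removed and a replicate block. The number was 1 with library size alone, 1 with the GC trend removed, and 0 with the replicate block and both trends removed. It ranged from 0 to 2 when 1 library was left out, and the count of other interferon genes from 3 to 14. That count was 8 with the replicate block and 7 with the block and both trends. The median log2 fold change of the 9 genes ranged from 0.044 to 0.23 without 1 library, the highest without WT2, and was 0.11 with the replicate block. The deviations of same-numbered KO and WT libraries had correlations of -0.10, 0.05 and 0.04. Deviations cancel within each genotype, so these values cannot decide whether the libraries were paired. The labels give no ground for the block beyond the replicate number.

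The sign of Stat2 turned with library size alone (-0.0305), limma-voom (-0.0011), the GC trend removed (-0.0284), the replicate block (-0.0046) and the block with both trends (-0.0036), and its value ran from -0.0781 to 0.159 without 1 library. That of Ifit2 turned with library size alone (-0.0061) and ran from -0.0254 to 0.116, and that of Ifit1 ran from -0.0174 to 0.265 without 1 library. That of Ifitm3 turned with the length trend removed (-0.0599) and with the block and both trends (-0.104), and ran from -0.0569 to 0.185 without 1 library. Beside the losses without 1 library, Irf7 lost its call with library size alone (adjusted p = 0.0552), the GC trend removed (0.0728) and the block with both trends (0.0827), and Bst2 with the last of these (0.102, at a log2 fold change of 0.30), over ranges of 0.00287 to 0.147 and 0.00134 to 0.102. The cause was not tested. Depth limits Ifit3, at 21 to 51 reads a library.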
